A study of Mus musculus with 26 samples.

Results

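MicroRNA gene transcripts were measured on whole-transcript expression arrays in mouse pineoblastoma (PB), a malignant tumor of the pineal gland, and in normal cerebellum. The genes described are all those whose symbol in the probe annotation starts with Mir or Mirlet followed by a digit, with host genes whose symbol ends in hg left out and only where a transcript cluster (the set of probes summarized as 1 gene) carried exactly 1 symbol. This rule uses no measured value. It found 296 of the 19938 named genes on the Mouse Gene 1.0 ST arrays, and 265 of these were followed on the Mouse Gene 2.0 ST arrays, which carried 22180 named genes.

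The 1.0 ST arrays carried 5 Rb/p53-mutated PBs, 11 Rb/p53-deleted PBs and 3 normal cerebellum samples. The 2.0 ST arrays carried 3 Rb/Dicer1/p53-deleted PBs, 3 Dicer1/p53-deleted PBs and 1 further Rb/p53-deleted PB, number 12. Every tumor arose in mice with WAP-Cre, a Cre recombinase under the promoter of the milk protein gene Wap that is also active in the pineal gland. The Rb/p53-mutated mice were Rb flox/flox and carried p53 lsl_R270H/flox, so that Cre deletes one p53 allele and switches on the R270H point mutant from the other. The Rb/p53-deleted mice were Rb flox/flox with p53 flox/flox. The Dicer1/p53-deleted mice were Dicer1 flox/flox with p53 flox/flox, and the Rb/Dicer1/p53-deleted mice carried Rb flox/flox as well. The floxed Dicer1 allele loses most of an RNase III domain. No p53 wild-type tumor and no normal pineal gland was measured, and the labels give no genotype or age for the cerebellum samples and no age for the tumors. Cerebellum was therefore the only normal tissue, and it differs from a pineal tumor in cell type as well as in growth.

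On the 1.0 ST arrays, the mean level of 9 pinealocyte markers was 11.4 to 11.7 among Rb/p53-mutated PBs, 11.3 to 11.6 in Rb/p53-deleted PBs and 7.29 to 7.68 in cerebellum, on the log2 scale of the arrays. The mean of 5 Purkinje cell markers was 6.28 to 6.58 among Rb/p53-mutated PBs, 6.43 to 7.69 in Rb/p53-deleted PBs and 12.4 to 12.5 in cerebellum, so both labelled tissues carried their markers. The clusters for Rb1 and Dicer1 summarize probes along the whole gene and do not check a deletion of part of it: Rb1 averaged 10.4 in Rb/p53-deleted PBs and 10.03 in cerebellum. The deposited 1.0 ST arrays fell into 3 sets by median and spread. Rb/p53-mutated PBs formed one, with medians of 7.04 to 7.12, Rb/p53-deleted PB 11 shared a second with the cerebellum arrays, and Rb/p53-deleted PB 1 to PB 10 formed the third. All 19 arrays were quantile-normalized together before any comparison. Without that step the median difference over all genes was -0.92 log2 for Rb/p53-mutated PBs over cerebellum and -0.86 log2 for Rb/p53-mutated over Rb/p53-deleted PBs, so differences of Rb/p53-mutated PBs are relative to the bulk of genes, and the sign of the smaller ones turns with the values as deposited. The array set and the Rb/p53-mutated genotype cannot be told apart. For Rb/p53-deleted PBs, the array set was entered as a block as an alternative, which sets PB 11 alone against cerebellum.

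MicroRNAs are short RNAs that pair through a seed, bases 2 to 8 from their 5′ end, with sites in messenger RNAs and lower their translation and stability. A microRNA gene is transcribed as a long primary transcript, often holding several microRNAs. Drosha with Dgcr8 cuts hairpins out of that transcript, Xpo5 carries them out of the nucleus, and Dicer1 cuts the mature microRNA from the hairpin before it is loaded on an Argonaute protein such as Ago2. Where the probes lie relative to the hairpin is not given in the sources used here, so primary transcript, hairpin and mature strand cannot be told apart in a value. Most members gave weak signal: 119 of the 296 members stayed above the lowest 25% of all genes by mean level in Rb/p53-deleted PBs and cerebellum, and the array files hold no detection calls. Of the processing genes, Dgcr8 rose by 1.01 log2 in Rb/p53-mutated PBs and 0.89 log2 in Rb/p53-deleted PBs over cerebellum, while Drosha and Xpo5 were called in neither. Values below are log2 levels after normalization, n is the number of arrays, and levels of different genes are not compared.

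The mature sequences of the members that the results turn on are printed here 5′ to 3′ with the seed in capitals, so that members with the same seed can be recognized in what follows. They were taken from RefSeq on the mouse build GRCm38.p6, where 271 of the 296 members had an entry and 270 a mature sequence. The first set belongs to the clusters around Mir17, which hold the largest rises over cerebellum in Rb/p53-deleted PBs, and to the miR-15/16 genes. Of the latter, only Mir15a and Mir15b were called higher there.
miR-17-5p: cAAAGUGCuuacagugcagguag
miR-20a-5p: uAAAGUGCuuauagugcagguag
miR-18a-5p: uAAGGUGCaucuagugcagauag
miR-19a-3p: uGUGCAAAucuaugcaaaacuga
miR-363-3p: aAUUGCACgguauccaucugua
miR-15b-5p: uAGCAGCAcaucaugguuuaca
miR-16-5p: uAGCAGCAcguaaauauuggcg

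The second set belongs to genes that were lower in the tumors than in cerebellum, 4 of them from an imprinted domain of chromosome 12. It includes miR-30a-5p, which has the seed of miR-384-5p and whose gene was called lower in Rb/p53-mutated PBs only.
miR-376a-3p: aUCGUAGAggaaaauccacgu
miR-376b-3p: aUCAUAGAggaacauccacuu
miR-154-3p: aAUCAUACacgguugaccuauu
miR-382-3p: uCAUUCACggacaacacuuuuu
miR-384-5p: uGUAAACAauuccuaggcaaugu
miR-30a-5p: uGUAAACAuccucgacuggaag
miR-9-5p: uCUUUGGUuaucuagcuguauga

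The third set holds pairs with a shared seed that were called differently between the 2 tumor groups of the 1.0 ST arrays. The gene of let-7f-5p was lower and that of let-7e-5p higher in Rb/p53-mutated than in Rb/p53-deleted PBs, and the gene of miR-100-5p was higher while that of miR-99a-5p was not called.
let-7f-5p: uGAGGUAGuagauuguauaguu
let-7e-5p: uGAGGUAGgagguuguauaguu
miR-99a-5p: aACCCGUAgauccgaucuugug
miR-100-5p: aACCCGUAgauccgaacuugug

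Among the members with a mature sequence, the seed AAAGUGC was shared by 6, Mir17, Mir20a, Mir20b, Mir93, Mir106a and Mir106b, and GUGCAAA by Mir19a, Mir19b-1 and Mir19b-2. Mir18 was the only member with AAGGUGC. The seed AUUGCAC was carried by 6 members, among them Mir363, Mir92-2 and Mir25. AGCAGCA was shared by the 6 members Mir15a, Mir15b, Mir16-1, Mir16-2, Mir195a and Mir497, and GAGGUAG by 9 members of the let-7 family. The seed of Mir384, GUAAACA, was also found for 4 Mir30 genes, Mir30a, Mir30c-1, Mir30c-2 and Mir30e. A member without a matching mature sequence could not be placed, so all these counts can be too low.

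Against cerebellum, microRNA transcripts were called lower more often than higher in both kinds of tumor, as were all named genes. Most genes of the miR-17 clusters were higher, an imprinted cluster on chromosome 12 was lower, and so were Mir384 and much of a list of neuronal microRNAs. In Rb/p53-mutated PBs, 34 of 296 members (11.5%) rose and 102 (34.5%) fell against cerebellum at an adjusted p under 0.01 (limma). The background, the share of all named genes called, was 23.8% upward and 27.6% downward. In Rb/p53-deleted PBs, 41 members (13.9%) rose and 86 (29.1%) fell, against a background of 25% upward and 27.7% downward. The downward share of members was thus close to background in Rb/p53-deleted PBs, and the upward share lay below it in both comparisons. The 2 comparisons share the cerebellum arrays. The median difference over the members was -0.13 log2 for Rb/p53-mutated PBs, against -0.02 over all genes, and -0.06 log2 for Rb/p53-deleted PBs, against 0.01 over all genes. The second order turned with arrays centred on their medians only, which gave -0.00357 log2 over the members and -0.02 log2 over all genes. Differences of at least 1 log2 were called upward for 12 members and downward for 46 in Rb/p53-mutated PBs (backgrounds 9.42% and 11.9%), and upward for 12 and downward for 36 in Rb/p53-deleted PBs (8.8% and 11%). Taking both directions together, 136 members were called in Rb/p53-mutated PBs (background 51.3%) and 127 in Rb/p53-deleted PBs (52.6%). The groups did not overlap for 171 members in the first comparison and 97 in the second, or 57.8% and 32.8%, against 64.2% and 48.3% of all genes. With the array set as a block, 54 members were called in place of 127 in Rb/p53-deleted PBs, and over all genes 14.4% were called upward and 15.5% downward. The share of calls that were upward was 25% in Rb/p53-mutated PBs (38.6% with arrays centred on their medians only, 16.3% with arrays scaled to 1 median and interquartile range, 1.16% with the values as deposited) and 32.3% in Rb/p53-deleted PBs (18.2% after the second of these scalings).

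In Rb/p53-deleted PBs the largest rises came from the cluster on chromosome 14 that holds Mir17, Mir18, Mir19a, Mir20a and Mir19b-1 (chr14:115043671-115044391, GRCm38.p6). This cluster is transcribed as the host transcript Mir17hg, is known as a target of MYC and E2F factors, and its microRNAs promote proliferation and survival in several tumors. Related copies lie on the X chromosome (Mir106a, Mir20b, Mir19b-2, Mir92-2 and Mir363) and on chromosome 5 inside Mcm7, a replication licensing gene (Mir106b, Mir93 and Mir25). Of the 13 measured members of the 3 clusters, 7 rose and 2 fell in Rb/p53-mutated PBs against cerebellum, with a median of 0.44 log2. In Rb/p53-deleted PBs 9 rose and 1 fell, with a median of 0.81 log2.

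Mir18, which encodes miR-18a, had levels of 6.56, 6.17, 6.28, 6.04 and 6.39 in Rb/p53-mutated PBs 1 to 5. In Rb/p53-deleted PBs the lowest level was 7.79, the median 8.49 and the highest 8.99, and the cerebellum arrays read 4.27, 4.63 and 4.41. The 3 groups did not overlap, with Rb/p53-deleted PBs highest and cerebellum lowest. Mir18 rose by 1.85 ± 0.13 log2 (SE, adjusted p = 1.7e-06) in Rb/p53-mutated PBs and by 4.09 ± 0.18 log2 (SE, adjusted p = 8.4e-12) in Rb/p53-deleted PBs against cerebellum, and was 2.24 ± 0.15 log2 lower (SE, adjusted p = 1.6e-08) in Rb/p53-mutated than in Rb/p53-deleted PBs. On the linear scale the rise in Rb/p53-deleted PBs is 17.1-fold, and PB 11, at 8.49, gave 4.06 log2 with the array set as a block.

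Mir19a behaved likewise. Its levels were 4.90, 4.32, 4.47, 4.31 and 4.38 in Rb/p53-mutated PBs, against 5.98, 6.60 and 7.44 as the lowest, median and highest in Rb/p53-deleted PBs and 3.31, 3.24 and 3.56 in cerebellum. Again no group overlapped another. The rise over cerebellum was 1.10 log2 in Rb/p53-mutated PBs and 3.26 log2 in Rb/p53-deleted PBs. The Rb/p53-mutated PBs were 2.16 log2 below the Rb/p53-deleted PBs (adjusted p = 3.7e-07).

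The other 3 genes of the cluster moved less. Mir20a had 5.35, 4.63, 4.75, 4.92 and 4.70 in Rb/p53-mutated PBs, 4.98 to 6.25 with a median of 5.74 in Rb/p53-deleted PBs, and 4.37, 4.27 and 4.19 in cerebellum. Every tumor lay above every cerebellum array, and the 2 tumor groups overlapped. It rose by 0.59 log2 in Rb/p53-mutated PBs and 1.37 log2 in Rb/p53-deleted PBs, where PB 11 was the lowest tumor and the block gave 0.71 log2 (adjusted p = 0.092). Mir19b-1 rose by 1.75 log2 in Rb/p53-deleted PBs (adjusted p = 6e-06), while its difference of 0.83 log2 in Rb/p53-mutated PBs missed the threshold (adjusted p = 0.011). Mir17 itself rose by 0.40 log2 in Rb/p53-deleted PBs (0.24 with the array set as a block, adjusted p = 0.20) and differed by 0.14 log2 in Rb/p53-mutated PBs (adjusted p = 0.31).

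The host transcript did not follow the order of the microRNA genes of the cluster. Mir17hg had 8.11, 7.80, 8.29, 7.91 and 8.58 in Rb/p53-mutated PBs, 8.14 ± 0.31 on average (SD, n = 5), against 7.81 ± 0.24 in Rb/p53-deleted PBs (SD, n = 11) and 6.30 ± 0.17 in cerebellum (SD, n = 3). It rose by 1.84 log2 in Rb/p53-mutated PBs and by 1.51 log2 in Rb/p53-deleted PBs. Between the tumor groups it was 0.33 log2 higher in Rb/p53-mutated PBs (adjusted p = 0.052), whereas all 5 microRNA genes of the cluster were called lower there, by 0.27 log2 for Mir17 to 2.24 log2 for Mir18.

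**Figure D1:**
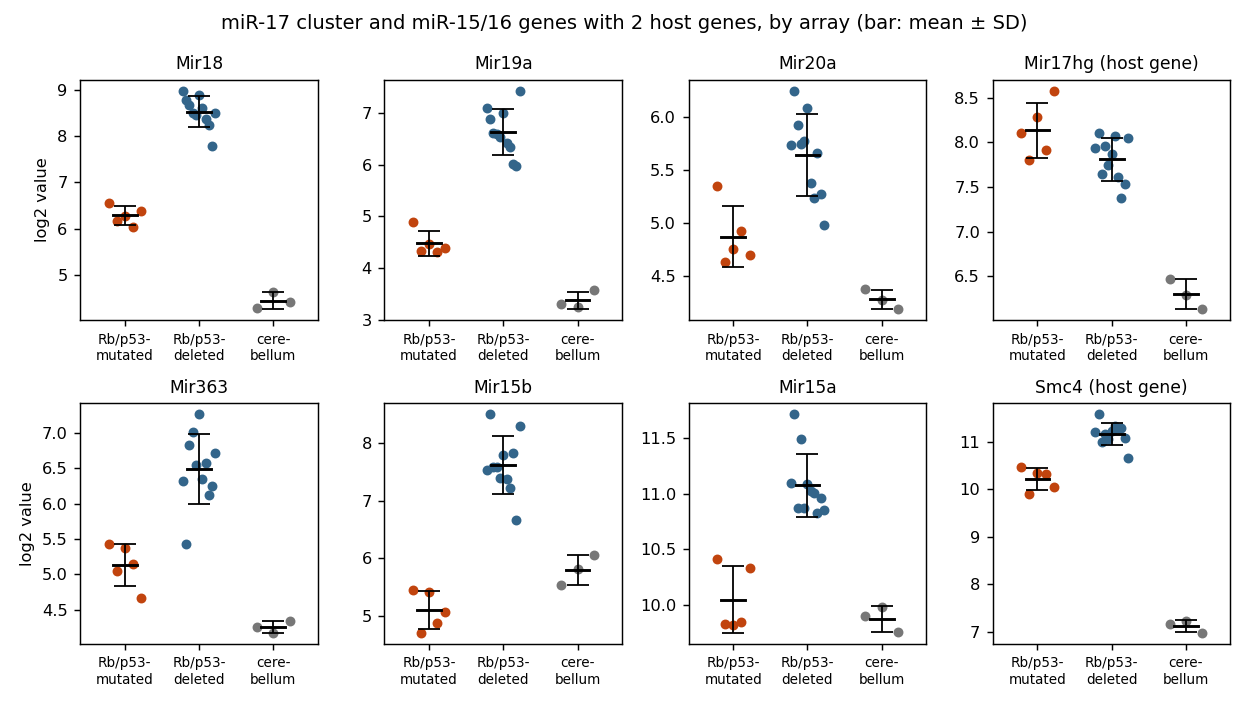
Log2 level on each 1.0 ST array (1 point per array, bars for the group mean ± SD) of 6 microRNA genes and of the host genes Mir17hg and Smc4, in 5 Rb/p53-mutated PBs, 11 Rb/p53-deleted PBs and 3 cerebellum samples. Mir18 and Mir19a separate all 3 groups, with Rb/p53-deleted PBs highest, while Mir17hg is at 8.14 on average in Rb/p53-mutated PBs and 7.81 in Rb/p53-deleted PBs.

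In the X-linked cluster, Mir363 carried the largest rise. Its levels were 5.42, 5.05, 5.37, 5.15 and 4.67 in Rb/p53-mutated PBs, 5.43, 6.54 and 7.26 (lowest, median and highest) in Rb/p53-deleted PBs, and 4.26, 4.18 and 4.35 in cerebellum. The groups did not overlap, although the highest Rb/p53-mutated PB lay just below the lowest Rb/p53-deleted PB. Mir363 rose by 0.87 log2 in Rb/p53-mutated PBs and 2.23 log2 in Rb/p53-deleted PBs, and was 1.36 log2 lower in Rb/p53-mutated than in Rb/p53-deleted PBs (adjusted p = 9.2e-05). Mir19b-2 rose by 0.80 log2 in Rb/p53-mutated PBs and 0.81 log2 in Rb/p53-deleted PBs. Mir106a rose by 0.44 and 0.81 log2 in the same order, but in Rb/p53-deleted PB 11 it read 4.53, within the 4.36 to 4.56 of cerebellum, and the block gave 0.06 log2. Mir92-2 was the exception. It fell by 0.69 log2 in Rb/p53-mutated PBs and by 0.35 log2 in Rb/p53-deleted PBs, the second of which became 0.03 log2 with the array set as a block. Mir20b fell by 0.42 log2 in Rb/p53-mutated PBs.

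The chromosome 5 cluster moved little beside its host. Mcm7 averaged 11.1 in Rb/p53-mutated PBs, 11.5 in Rb/p53-deleted PBs and 8.72 in cerebellum, a rise of 2.41 log2 in Rb/p53-mutated PBs and 2.82 log2 in Rb/p53-deleted PBs. Inside it, Mir93 rose by 0.39 log2 in Rb/p53-mutated PBs (0.29 log2 in Rb/p53-deleted PBs, adjusted p = 0.027) and Mir25 by 0.36 log2 in Rb/p53-deleted PBs (0.18 log2 in Rb/p53-mutated PBs, adjusted p = 0.098). Mir106b passed the threshold in neither.

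The miR-15/16 genes, known for restraining BCL2 and G1 cyclins, split between the tumor groups. Mir15b and Mir16-2 lie side by side in an intron of Smc4, a condensin subunit. Mir15b had 5.44, 4.70, 5.42, 4.88 and 5.06 in Rb/p53-mutated PBs, 6.66, 7.59 and 8.50 (lowest, median and highest) in Rb/p53-deleted PBs, and 5.52, 5.82 and 6.05 in cerebellum. Rb/p53-deleted PBs lay above all other arrays and Rb/p53-mutated PBs below all of them. Mir15b rose by 1.82 log2 in Rb/p53-deleted PBs (adjusted p = 2.2e-05), its difference of -0.70 log2 in Rb/p53-mutated PBs missed the threshold (adjusted p = 0.010), and it was 2.51 ± 0.22 log2 lower (SE, adjusted p = 2.8e-07) in Rb/p53-mutated than in Rb/p53-deleted PBs. This was the largest difference of any member between the tumor groups. Smc4 averaged 10.2 ± 0.23 in Rb/p53-mutated PBs, 11.2 ± 0.23 in Rb/p53-deleted PBs and 7.12 ± 0.13 in cerebellum (SD, n = 5, 11 and 3), a rise of 3.09 log2 in Rb/p53-mutated PBs and 4.05 log2 in Rb/p53-deleted PBs.

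Mir16-2, in the same intron, did not show the difference. It read 6.55, 6.32, 6.65, 6.61 and 6.40 in Rb/p53-mutated PBs, 6.22 to 7.69 with a median of 6.65 in Rb/p53-deleted PBs, and 6.23, 6.36 and 6.19 in cerebellum. The highest of these values, 7.69, was PB 11, and the 0.43 log2 over cerebellum (adjusted p = 0.088) became 1.43 log2 (adjusted p = 0.00013) with the array set as a block. Mir15a, in the Dleu2 locus on chromosome 14, read 10.41, 9.83, 9.82, 9.85 and 10.34 in Rb/p53-mutated PBs, against 10.83 to 11.72 in Rb/p53-deleted PBs and 9.90, 9.98 and 9.75 in cerebellum. Rb/p53-deleted PBs were thus above all other arrays, and Rb/p53-mutated PBs overlapped cerebellum. It rose by 1.20 log2 in Rb/p53-deleted PBs (0.98 log2 with the block, adjusted p = 0.0102) and was 1.03 log2 lower in Rb/p53-mutated than in Rb/p53-deleted PBs. Its neighbor Mir16-1 fell by 0.67 log2 in Rb/p53-mutated PBs against cerebellum and by 0.82 log2 against Rb/p53-deleted PBs. Mir195a and Mir497, which share the seed and lie together on another chromosome, were not called against cerebellum.

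The Dlk1-Dio3 domain of chromosome 12 is imprinted: Dlk1, Rtl1 and Dio3 are expressed from the paternal copy, and the long noncoding RNAs Meg3 and Rian, with a long run of microRNA genes, from the maternal copy. These microRNAs are abundant in brain. Of the 40 members in the domain, 33 fell and 1 (Mir673) rose in Rb/p53-mutated PBs against cerebellum, with a median of -1.86 log2. In Rb/p53-deleted PBs 33 fell and none rose, with a median of -1.38 log2. In bulk tissue, fewer cells of a type and less RNA per cell cannot be told apart.

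The fall was concentrated at one end of the domain. A distal block of 30 genes, Mir379 to Mir369, spans 34.4 kb (chr12:109709060-109743496, GRCm38.p6), and 29 of its 30 genes fell in each tumor group, with medians of -2.33 log2 in Rb/p53-mutated PBs and -1.55 log2 in Rb/p53-deleted PBs. The exception in both was Mir667, at 9.87 in Rb/p53-mutated PBs, 9.76 in Rb/p53-deleted PBs and 9.57 in cerebellum. A proximal block of 7 genes, Mir337 to Mir136 (chr12:109585789-109595388), had 3 lower in Rb/p53-mutated PBs and 4 lower in Rb/p53-deleted PBs, with medians of -0.50 and -0.48 log2. Within the proximal block, Mir434 and Mir136 fell by 1.41 and 1.85 log2 in Rb/p53-mutated PBs and by 1.21 and 1.51 log2 in Rb/p53-deleted PBs. Mir337, Mir540 and Mir431 there were called in neither. The difference between the blocks was not tested. The other 3 members of the domain, Mir673, Mir341 and Mir370, lie outside both blocks.

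**Figure D2:**
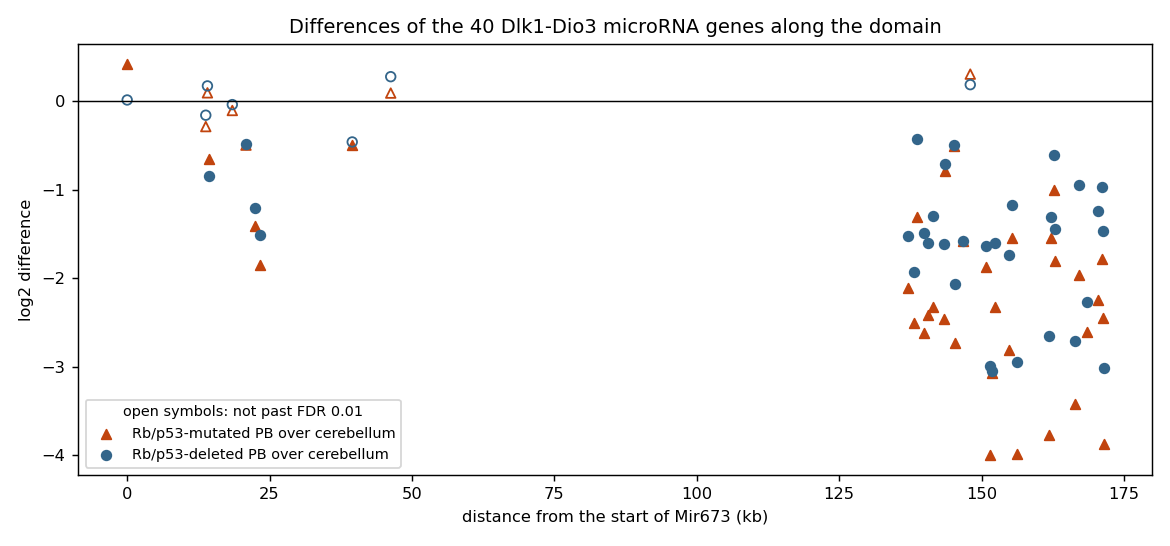
Log2 difference of the 40 members of the Dlk1-Dio3 domain against their distance in kb from Mir673, the first of them, for Rb/p53-mutated PBs over cerebellum (triangles) and Rb/p53-deleted PBs over cerebellum (circles), with open symbols for differences that missed the threshold. Against cerebellum the distal block has medians of -2.33 log2 in Rb/p53-mutated PBs and -1.55 log2 in Rb/p53-deleted PBs, and the proximal block -0.50 and -0.48 log2.

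Mir376a, Mir376b, Mir369, Mir539 and Mir154 held the 5 largest falls of the domain in Rb/p53-deleted PBs, and in Rb/p53-mutated PBs Mir382 stood in the place of Mir376a. Mir376b had 3.90, 3.72, 3.72, 3.73 and 3.44 in Rb/p53-mutated PBs, 3.91, 4.62 and 6.32 (lowest, median and highest) in Rb/p53-deleted PBs, and 7.78, 7.89 and 7.43 in cerebellum. The 3 groups did not overlap. It fell by 4.0 log2 in Rb/p53-mutated PBs and by 2.99 log2 in Rb/p53-deleted PBs, and was 1.01 log2 lower in Rb/p53-mutated than in Rb/p53-deleted PBs (adjusted p = 0.0050). Mir376a, its neighbor with another seed, had 3.30, 3.21, 2.93, 3.07 and 3.17 in Rb/p53-mutated PBs, 2.74 to 4.56 in Rb/p53-deleted PBs and 6.07, 6.31 and 6.24 in cerebellum. It fell by 3.07 log2 in Rb/p53-mutated PBs and 3.05 log2 in Rb/p53-deleted PBs, and the tumor groups overlapped. Mir381 fell by 2.81 and 1.74 log2, Mir539 by 3.98 and 2.95 log2, Mir369 by 3.87 and 3.02 log2 and Mir154 by 3.42 and 2.71 log2, where the first value is that of Rb/p53-mutated PBs. Mir382 fell by 3.77 log2 in Rb/p53-mutated PBs and by 2.65 log2 in Rb/p53-deleted PBs, the second not called with the array set as a block (-1.98 log2, adjusted p = 0.094).

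These genes also varied among Rb/p53-deleted PBs. Of 12 members whose SD over the 11 Rb/p53-deleted PBs exceeded 0.5 log2, 10 were in this domain, while the median SD was 0.183 over all members and 0.167 over all genes. Over the Rb/p53-mutated PBs 12 members also exceeded it, and 5 of these were in the domain. The mean of the distal block was 5.48, 5.55, 5.06, 5.06 and 5.00 in Rb/p53-mutated PBs 1 to 5. It ran from 5.34 in PB 2 through a median of 5.82 to 6.74 in PB 3 among Rb/p53-deleted PBs, and was 7.55, 7.57 and 7.28 in cerebellum. All tumors thus lay below all cerebellum arrays, and PB 3 was followed by PB 6, at 6.22, among Rb/p53-deleted PBs. PB 3 was the highest Rb/p53-deleted PB for 25 of the 30 genes, and PB 2 the lowest for 18. Mir382 shows the range, with 5.24 to 8.38 among Rb/p53-deleted PBs.

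The noncoding RNAs of the domain, looked at after the microRNA values were known, had the same extremes among Rb/p53-deleted PBs. Among these, Meg3 was highest in PB 3, at 11.57, and lowest in PB 2, at 8.40. Rian was also highest in PB 3, at 8.41, and lowest in PB 2, at 6.24. In Rb/p53-mutated over Rb/p53-deleted PBs, Meg3 differed by 0.64 log2 (limma, adjusted p = 0.24) and Rian by -0.44 log2 (adjusted p = 0.22). Meg3 thus differed in sign from the distal block, whose median there was -0.72 log2, without being called. Against cerebellum, Rian fell by 1.44 log2 in Rb/p53-mutated PBs and differed by -1.0 log2 in Rb/p53-deleted PBs (adjusted p = 0.021). Meg3 differed by -0.82 log2 (adjusted p = 0.060) in Rb/p53-mutated PBs and by -1.46 log2 (adjusted p = 0.020) in Rb/p53-deleted PBs. Dlk1, from the other parental copy, rose by 3.00 log2 in Rb/p53-mutated PBs and by 2.54 log2 in Rb/p53-deleted PBs, and Rtl1 fell by 0.69 and 0.33 log2 in that order. Dio3 differed by -0.21 log2 in Rb/p53-mutated PBs (adjusted p = 0.36) and rose by 0.31 log2 in Rb/p53-deleted PBs (adjusted p = 0.0098).

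**Figure D3:**
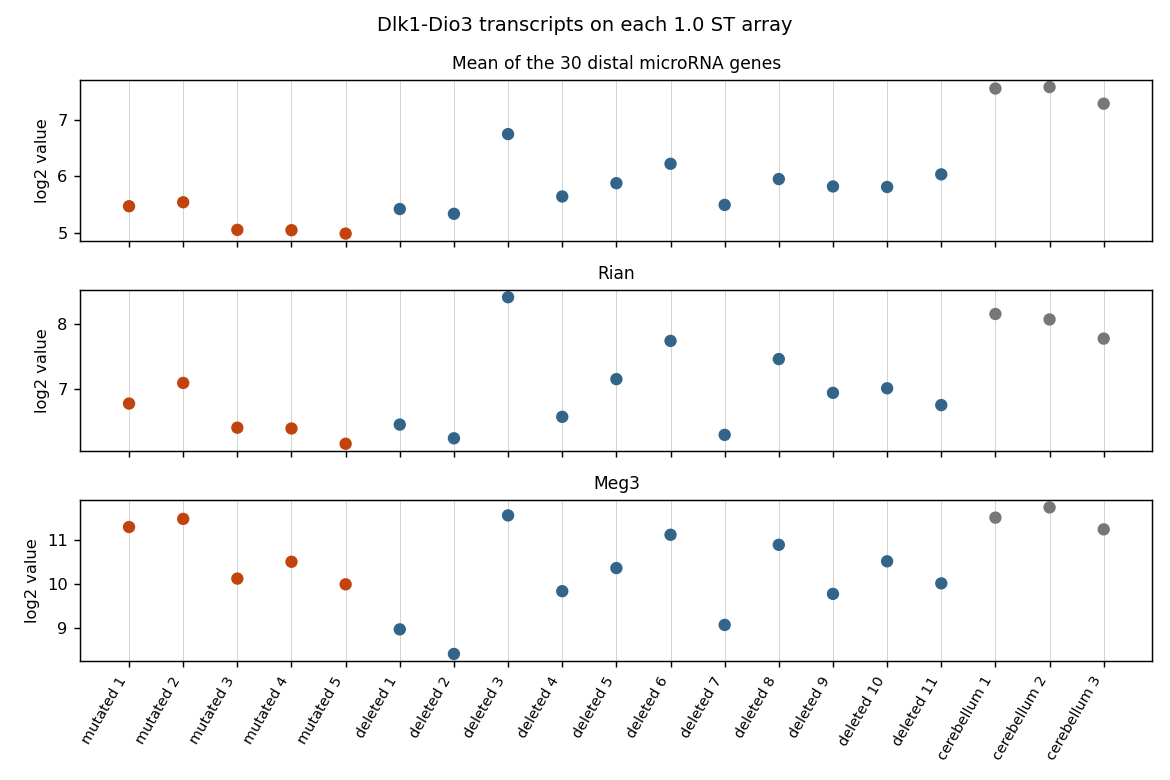
Mean log2 level of the 30 distal microRNA genes of the Dlk1-Dio3 domain and log2 levels of the noncoding RNAs Rian and Meg3 on each 1.0 ST array, in Rb/p53-mutated PBs, Rb/p53-deleted PBs and cerebellum. Rb/p53-deleted PB 3 is the highest tumor in all 3 panels, at 6.74, 8.41 and 11.57.

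Outside these clusters, Mir384 gave the largest fall of any member in both comparisons with cerebellum. It read 2.91, 3.18, 2.99, 3.14 and 2.79 in Rb/p53-mutated PBs, 2.72, 2.92 and 3.15 (lowest, median and highest) in Rb/p53-deleted PBs, and 7.04, 7.15 and 6.90 in cerebellum. Both tumor groups were near the low end of the scale and overlapped each other, with cerebellum far above. Mir384 fell by 4.03 ± 0.11 log2 (SE, adjusted p = 5e-09) in Rb/p53-mutated PBs and by 4.09 ± 0.09 log2 (SE, adjusted p = 1.5e-15) in Rb/p53-deleted PBs, and by 3.89 log2 with the array set as a block. Of the Mir30 family, Mir30c-2 fell by 1.36 log2 in Rb/p53-mutated PBs and 0.72 log2 in Rb/p53-deleted PBs, Mir30c-1 by 0.63 and 0.62 log2, and Mir30a by 0.65 log2 in Rb/p53-mutated PBs, while Mir30e was called in neither. Mir30b fell by 1.15 log2 in Rb/p53-mutated PBs and by 1.0 log2 in Rb/p53-deleted PBs. With the array set as a block, the difference in Rb/p53-deleted PBs was -0.22 log2 for Mir30c-1, -0.74 for Mir30c-2, -0.66 for Mir30b and -0.45 for Mir30d. Mir30d was called lower in Rb/p53-deleted PBs only, and higher in Rb/p53-mutated than in Rb/p53-deleted PBs.

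In the list of microRNAs known from neurons, calls were mostly downward. Of its 19 measured members, 13 fell and 1 (Mir218-1, by 0.33 log2 upward) rose in Rb/p53-mutated PBs, with a median of -0.51 log2, and 11 fell and none rose in Rb/p53-deleted PBs, with a median of -0.36 log2. Mir9-1, which makes miR-9, a regulator of neural progenitors, read 6.35, 5.81, 6.05, 6.17 and 6.29 in Rb/p53-mutated PBs, 5.86 to 7.01 with a median of 6.09 in Rb/p53-deleted PBs, and 8.42, 8.41 and 8.18 in cerebellum. Every tumor was below every cerebellum array. Mir9-1 fell by 2.20 log2 in Rb/p53-mutated PBs and 2.14 log2 in Rb/p53-deleted PBs (1.33 log2 lower with the array set as a block), and Mir9-3, with the same mature sequence, by 1.20 and 0.91 log2. Mir128-1 and Mir128-2 fell by 0.74 and 0.86 log2 in Rb/p53-mutated PBs and by 0.55 and 0.64 log2 in Rb/p53-deleted PBs, the first not called with the block (-0.38 log2, adjusted p = 0.088). Mir124a-2, one gene of the neuron-enriched miR-124, fell by 0.56 and 0.26 log2 in that order. Beside this list, the mean of the 8 granule neuron markers was 9.45 to 10.03 among Rb/p53-mutated PBs, 9.54 to 10.41 in Rb/p53-deleted PBs and 12.50 to 12.53 in cerebellum, with 5 of 8 called lower in each, and all 5 Purkinje markers were lower in each. Their part in the result was not tested.

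Of the 3 measured genes of the glial list, 2 fell in each tumor group. Mir219a-2, whose microRNA drives oligodendrocyte maturation, fell by 0.69 log2 in Rb/p53-mutated PBs and 0.40 log2 in Rb/p53-deleted PBs, and Mir219a-1 by 0.45 and 0.27 log2, the second not called with the array set as a block (-0.27 log2, adjusted p = 0.15). The third, Mir338, differed by 0.10 log2 in Rb/p53-mutated PBs and 0.04 log2 in Rb/p53-deleted PBs (adjusted p = 0.39 and 0.74). All 5 oligodendrocyte markers were lower in each tumor group, at a mean of 7.33 to 8.0 among Rb/p53-mutated PBs, 7.68 to 8.21 in Rb/p53-deleted PBs and 10.69 to 10.99 in cerebellum, and 5 and 6 of the 6 astrocyte markers. Their part in the result was not tested.

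The let-7 genes, which restrain growth and are blocked in maturation by Lin28a and Lin28b, did not move together. Of 10 members, 5 fell and none rose in Rb/p53-mutated PBs, and 3 fell and 1 rose in Rb/p53-deleted PBs. Mirlet7f-1 read 5.62, 4.99, 5.02, 5.41 and 4.88 in Rb/p53-mutated PBs, 5.69, 6.24 and 7.25 (lowest, median and highest) in Rb/p53-deleted PBs, and 7.58, 7.38 and 7.58 in cerebellum. The groups did not overlap, and the highest Rb/p53-deleted PB, PB 11, was close to cerebellum. It fell by 2.33 log2 in Rb/p53-mutated PBs (adjusted p = 2.1e-06) and by 1.28 log2 in Rb/p53-deleted PBs, the second reduced to -0.26 log2 with the array set as a block (adjusted p = 0.42). Mirlet7g fell by 1.02 log2 in Rb/p53-mutated PBs and by 0.43 log2 in Rb/p53-deleted PBs, the second not called with the block (adjusted p = 0.053). Mirlet7e went the other way between the tumors: it read 9.05, 8.81, 8.43, 8.62 and 8.85 in Rb/p53-mutated PBs, 7.48 to 8.13 in Rb/p53-deleted PBs and 8.47, 8.61 and 8.31 in cerebellum, so that Rb/p53-deleted PBs lay below all other arrays. It fell by 0.52 log2 in Rb/p53-deleted PBs and was 0.81 log2 higher in Rb/p53-mutated than in Rb/p53-deleted PBs (adjusted p = 3.1e-05). Lin28b averaged 8.78 ± 0.35 in Rb/p53-mutated PBs, 7.60 ± 0.88 in Rb/p53-deleted PBs and 6.63 ± 0.06 in cerebellum (SD, n = 5, 11 and 3), a rise of 2.15 log2 in Rb/p53-mutated PBs and a difference of 0.97 log2 (adjusted p = 0.077) in Rb/p53-deleted PBs. Lin28b acts after transcription, on let-7 precursors.

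MicroRNAs of the Mir34 family are known as targets induced by p53, and those of the Mir449 family were listed with them. Of their 5 measured genes, 2 fell in Rb/p53-mutated PBs against cerebellum, and none was called in Rb/p53-deleted PBs. Mir34a, the best known p53 target among them, read 5.41, 5.19, 4.98, 5.53 and 5.15 in Rb/p53-mutated PBs, 5.12 to 5.89 in Rb/p53-deleted PBs and 5.65, 5.75 and 5.82 in cerebellum. It fell by 0.49 log2 in Rb/p53-mutated PBs and differed by -0.17 log2 in Rb/p53-deleted PBs (adjusted p = 0.20), which became -0.62 log2 (adjusted p = 0.0020) with the array set as a block. Mir34c fell by 0.39 log2 in Rb/p53-mutated PBs, and Mir34b lay between 6.66 and 7.15 on every 1.0 ST array.

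The sensory organ list, which includes microRNAs enriched in photoreceptors and pineal gland, showed no common rise, unlike the pinealocyte markers. Mir96 rose by 0.36 log2 in Rb/p53-deleted PBs, with 6.32, 6.16, 6.21, 6.20 and 6.47 in Rb/p53-mutated PBs (0.28 log2, adjusted p = 0.026), 6.21 to 6.58 in Rb/p53-deleted PBs and 5.89, 5.97 and 6.11 in cerebellum. Mir182, of the same cluster, lay above all cerebellum arrays in every tumor but was called in neither (adjusted p = 0.012 and 0.021), and Mir183 fell by 0.55 log2 in Rb/p53-mutated PBs. Mir204, in an intron of the channel gene Trpm3, fell by 1.35 log2 in Rb/p53-mutated PBs and by 0.59 log2 in Rb/p53-deleted PBs, beside falls of Trpm3 of 2.26 and 1.97 log2. Mir211, its close relative, was called in neither. For Mir204 the array set as a block gave -0.70 log2 (adjusted p = 0.060) and for Mir96 0.33 log2 (adjusted p = 0.078).

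Several further members rose in the tumors. Mir505 read 11.59, 11.81, 11.87, 12.06 and 11.88 in Rb/p53-mutated PBs, 9.99, 11.53 and 11.73 (lowest, median and highest) in Rb/p53-deleted PBs, and 9.49, 9.83 and 9.24 in cerebellum. Every tumor lay above cerebellum, PB 11 by the least. It rose by 2.32 log2 in Rb/p53-mutated PBs, the largest rise there, and by 1.87 log2 in Rb/p53-deleted PBs (0.47 log2 with the array set as a block, adjusted p = 0.075). Mir701 rose by 1.67 log2 in Rb/p53-mutated PBs and 1.81 log2 in Rb/p53-deleted PBs, and by 1.88 log2 with the block. Mir680-2 rose by 1.70 and 1.01 log2 (0.43 log2 with the block, adjusted p = 0.079), and Mir692-1 by 1.29 and 0.49 log2, in the same order. Mir99a rose by 1.23 log2 in each (0.36 log2 with the block, adjusted p = 0.43), and Mir181b-2 by 1.24 log2 in Rb/p53-mutated PBs and 0.92 log2 in Rb/p53-deleted PBs (0.34 log2 with the block, adjusted p = 0.41). Among further falls, Mir690 fell by 1.83 log2 in Rb/p53-mutated PBs and 2.11 log2 in Rb/p53-deleted PBs, Mir374b by 2.24 log2 and 1.82 log2 (0.66 log2 lower with the block, adjusted p = 0.014), and Mir221, a repressor of the cell cycle inhibitor p27, by 0.56 log2 and 1.31 log2 (0.67 log2 lower with the block).

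**Figure D4:**
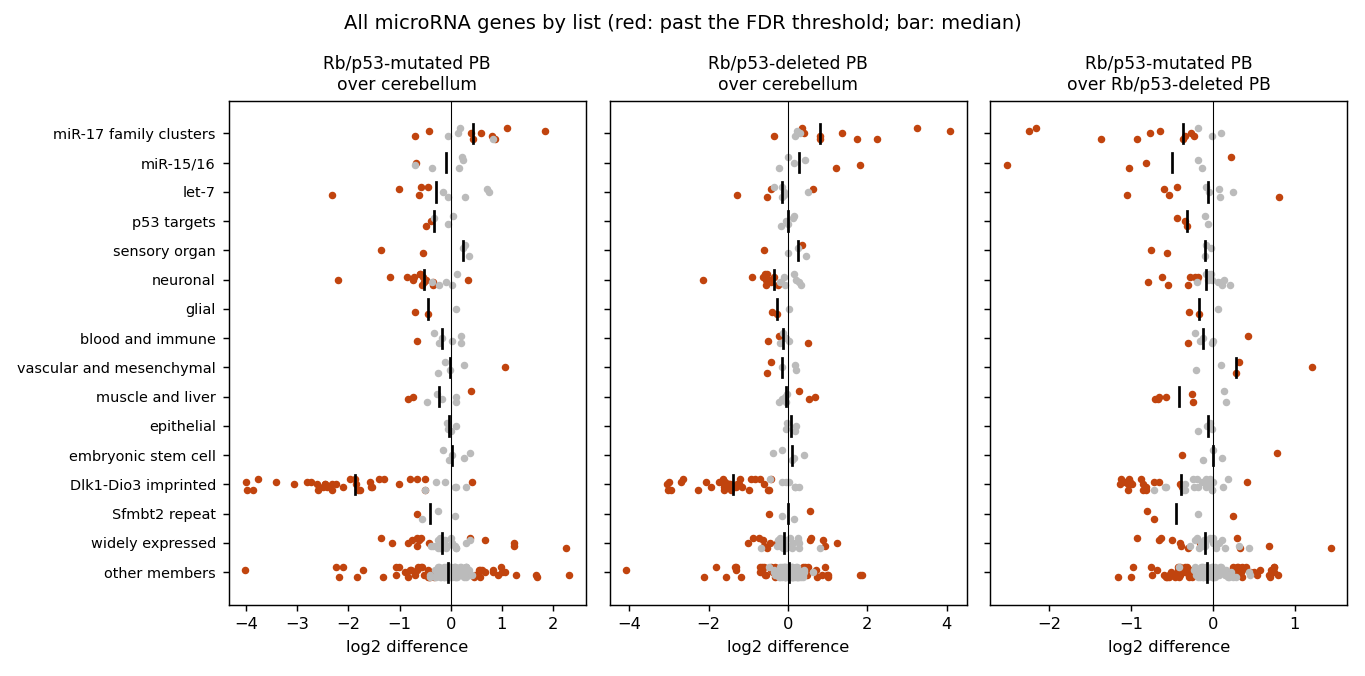
Log2 difference of each of the 296 members, grouped by list (red for those past the threshold of the comparison, grey for the rest, black bars at the list medians), for Rb/p53-mutated PBs over cerebellum, Rb/p53-deleted PBs over cerebellum and Rb/p53-mutated over Rb/p53-deleted PBs. The miR-17 clusters reach 4.09 log2 and the Dlk1-Dio3 genes -4.0 log2, while the epithelial and embryonic stem cell lists stay near 0 against cerebellum.

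The remaining lists are given by their counts. None of the 4 measured members of the epithelial miR-200 family and none of the 5 of the embryonic stem cell list was called against cerebellum. Of 7 blood and immune members, 1 fell in Rb/p53-mutated PBs, and 1 rose and 2 fell in Rb/p53-deleted PBs. Mir155, induced in activated leukocytes, was the one that rose, by 0.51 log2 in Rb/p53-deleted PBs, and it read 5.98 in PB 11, below cerebellum (-0.17 log2 with the block). Mir451a, of red cells, fell by 0.65 log2 in Rb/p53-mutated PBs and 0.49 log2 in Rb/p53-deleted PBs (-0.07 log2 with the block). Of the 8 muscle and liver genes, 1 rose and 2 fell in Rb/p53-mutated PBs and 3 rose in Rb/p53-deleted PBs, and of the 4 genes in the Sfmbt2 repeat, 1 fell in Rb/p53-mutated PBs and 1 moved each way in Rb/p53-deleted PBs. Among 34 widely expressed genes, 5 rose and 9 fell in Rb/p53-mutated PBs and 5 rose and 8 fell in Rb/p53-deleted PBs. Microglia and macrophage markers averaged 9.39 to 9.99 among Rb/p53-mutated PBs, 8.65 to 9.27 in Rb/p53-deleted PBs and 8.46 to 8.54 in cerebellum, and their part in the result was not tested.

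Between the 2 kinds of Rb-deficient tumor, the comparison asks how a p53 point mutant in place of a second deleted p53 allele bears on expression. Of 296 members, 35 had higher levels and 105 lower levels in Rb/p53-mutated than in Rb/p53-deleted PBs at an adjusted p under 0.05 (limma), against backgrounds of 20.7% and 25.9%, with a median of -0.12 log2 for the members and -0.04 log2 for all genes. All these differences run along the array sets and cannot be told apart from them. With the values as deposited, 281 members were called and 0.356% of the calls were upward, in place of 25%. Differences of at least 1 log2 were upward for 2 members and downward for 15 (backgrounds 1.08% and 0.727%). The 15 were Mir15b, Mir18, Mir19a, Mir363, Mir15a and Mirlet7f-1, given above, Mir130a, at -1.15 log2, and 8 genes of the distal Dlk1-Dio3 block, from -1.01 log2 for Mir541 to -1.14 log2 for Mir380. Of the 13 members of the miR-17 clusters, 10 were lower and none higher. Beside them, 4 of 5 proliferation markers were lower, with a mean of 11.4 to 11.8 among Rb/p53-mutated PBs, 11.6 to 12.2 in Rb/p53-deleted PBs and 6.80 to 7.52 in cerebellum, and all 5 rose over cerebellum in each tumor group. Their part in the result was not tested. Of the 30 distal Dlk1-Dio3 genes 18 were lower, while none of the 7 proximal genes was called.

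The 2 members higher by at least 1 log2 were Mir100 and Mir145a. Mir100 read 6.11, 9.29, 8.27, 8.01 and 9.12 in Rb/p53-mutated PBs, 5.72, 6.59 and 8.18 (lowest, median and highest) in Rb/p53-deleted PBs, and 5.84, 5.97 and 5.90 in cerebellum. Rb/p53-mutated PB 1 stayed near cerebellum, and the tumor groups overlapped. Mir100 was 1.44 ± 0.45 log2 higher (SE, adjusted p = 0.014) in Rb/p53-mutated than in Rb/p53-deleted PBs and rose by 2.26 log2 over cerebellum. The first call was lost without Rb/p53-mutated PB 2 or PB 5 (1.16 and 1.20 log2, adjusted p = 0.055 and 0.054), and the second without any 1 array other than Rb/p53-mutated PB 1. Mir99a, with the same seed, read 7.60, 7.19, 7.95, 8.14 and 7.23 in Rb/p53-mutated PBs and 6.75 to 8.33 in Rb/p53-deleted PBs.

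Mir145a, a smooth muscle microRNA, read 7.44, 6.22, 6.41, 7.21 and 7.05 in Rb/p53-mutated PBs, 5.28, 5.71 and 5.99 (lowest, median and highest) in Rb/p53-deleted PBs, and 5.88, 5.71 and 5.83 in cerebellum. Rb/p53-mutated PBs lay above all other arrays. It was 1.20 ± 0.16 log2 higher (SE, adjusted p = 1.9e-05) in Rb/p53-mutated than in Rb/p53-deleted PBs. Mir143, its neighbor on the same primary transcript, did not follow, with 7.24 to 7.61 among Rb/p53-mutated PBs, 7.16 to 7.95 in Rb/p53-deleted PBs and 7.34 to 7.48 in cerebellum. In the vascular and mesenchymal list 3 of 5 members were higher, the others being Mir126a, by 0.28 log2, and Mir199b. Of the 6 endothelial markers 1 was higher in Rb/p53-mutated PBs, where their mean was 8.11 to 8.53, against 7.95 to 8.46 in Rb/p53-deleted PBs, and 6 of 8 microglia and macrophage markers were higher. Their part in the result was not tested. Mir692-1, Mir383 and Mir221 were also higher with no overlap, by 0.80, 0.75 and 0.75 log2. Over all members, the 2 tumor groups did not overlap for 58, or 19.6%, and over all genes for 15.7%.

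On the 2.0 ST arrays, PBs with deletion of Dicer1, the enzyme that cuts the mature strand from the hairpin, were set against the single Rb/p53-deleted PB. The lone array was assumed to vary like the others in the fit. Dicer1 itself read 7.95 ± 0.19 in the 6 Dicer1-deleted PBs (SD) and 8.27 in PB 12 (-0.32 log2, adjusted p = 0.68), on a cluster that covers the whole gene. Of 265 members, 1 was lower and none higher in the 6 Dicer1-deleted PBs (both genotypes averaged) than in Rb/p53-deleted PB 12 at an adjusted p under 0.05 (limma), against backgrounds of 0.356% lower, 0.176% higher and 0.532% either way. At an unadjusted p under 0.05 there were 27. The single array lay outside the range of the other 6 for 94 members, or 35.5%, and for 36.8% of all genes. The median difference of the members was -0.03 log2, against 0.01 log2 over all genes. The one call was Mir181b-2, which read 5.59, 5.48 and 5.56 in Rb/Dicer1/p53-deleted PBs and 5.61, 5.51 and 5.51 in Dicer1/p53-deleted PBs, against 6.88 in Rb/p53-deleted PB 12. All 6 were below the single array, with a difference of -1.34 ± 0.18 log2 (SE, adjusted p = 0.035). The call was lost when Dicer1/p53-deleted PB 1, 2 or 3 or Rb/Dicer1/p53-deleted PB 2 or 3 was left out (adjusted p = 0.059 to 0.093), with the difference between -1.32 and -1.35 log2. Mir181a-2, of the same cluster, read 5.70 to 6.44 in the 6 Dicer1-deleted PBs and 7.04 in PB 12 (-0.83 log2, adjusted p = 0.30).

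The oncogenic clusters were lower than in PB 12, without passing the threshold. Mir363 read 3.45, 3.21 and 4.64 in Rb/Dicer1/p53-deleted PBs and 3.20, 3.04 and 3.41 in Dicer1/p53-deleted PBs, against 5.88 in PB 12, a difference of -2.39 ± 0.47 log2 (SE, adjusted p = 0.090). Rb/Dicer1/p53-deleted PB 3 was the nearest to PB 12, and without it the difference was -2.61 log2 (adjusted p = 0.027). Mir19b-2, of the same X-linked cluster, read 1.67 to 2.82 in the Dicer1-deleted PBs and 3.49 in PB 12 (-1.33 log2, adjusted p = 0.14). All 9 measured members of the miR-17 clusters had differences below 0, with a median of -0.85 log2.

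The distal Dlk1-Dio3 genes stood the other way. Of the 26 measured, 25 were above PB 12 on average, with a median of 0.82 log2, and none was called. Mir300 read 6.03, 4.47 and 4.01 in Rb/Dicer1/p53-deleted PBs and 5.89, 3.90 and 5.31 in Dicer1/p53-deleted PBs, against 2.42 in PB 12 (2.52 ± 0.83 log2, SE, adjusted p = 0.26). Mir382 read 6.54, 5.26 and 4.90 and then 6.30, 5.47 and 6.15 in the same genotypes, against 3.42 in PB 12 (2.35 log2, adjusted p = 0.14). Rian, a noncoding RNA of the domain, read 9.26 to 10.86 in the 6 Dicer1-deleted PBs and 6.84 in PB 12 (3.26 log2). Meg3, the other one named above, read 5.21 to 6.02 in the 6 Dicer1-deleted PBs and 5.10 in PB 12 (0.51 log2). Neither was called. With 1 array, a feature of PB 12 alone and one of its genotype cannot be told apart, and on the 1.0 ST arrays 10 of the 12 members of widest spread among Rb/p53-deleted PBs were in this domain.

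**Figure D5:**
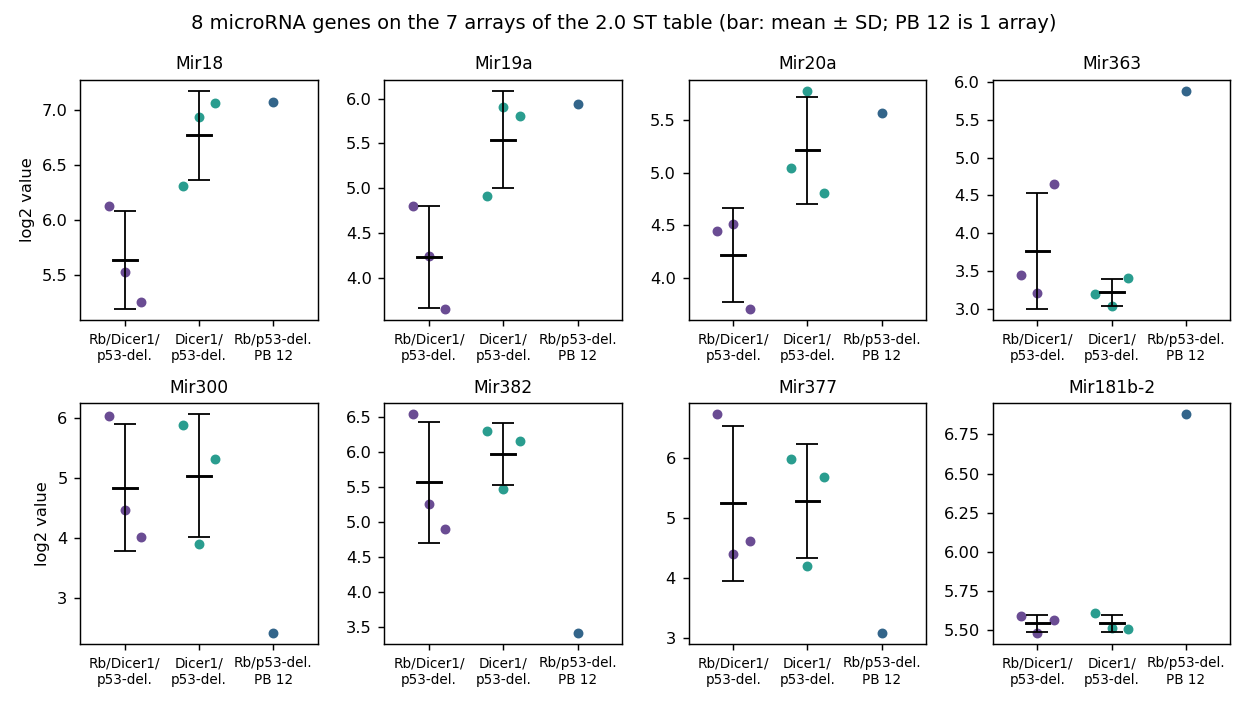
Log2 level of 8 microRNA genes on the 7 arrays of the 2.0 ST type: 3 Rb/Dicer1/p53-deleted PBs, 3 Dicer1/p53-deleted PBs and Rb/p53-deleted PB 12 (1 point per array, bars for the mean ± SD of 3 arrays). Mir181b-2 is at 5.48 to 5.61 in the 6 Dicer1-deleted PBs and 6.88 in PB 12, and Mir300, Mir382 and Mir377 are lowest in PB 12.

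Deletion of Rb beside that of Dicer1 and p53 came with no call. Rb1 averaged 8.54 ± 0.25 in Rb/Dicer1/p53-deleted PBs and 9.70 ± 0.24 in Dicer1/p53-deleted PBs (SD, n = 3 each), a difference of -1.16 log2 that missed the threshold (adjusted p = 0.37). None of the 265 members, and 0% of all genes, was called between Rb/Dicer1/p53-deleted and Dicer1/p53-deleted PBs (limma), and 18 members had an unadjusted p under 0.05. The largest differences downward were again in the chromosome 14 cluster. Mir19a read 4.80, 4.25 and 3.65 in Rb/Dicer1/p53-deleted PBs and 4.91, 5.91 and 5.81 in Dicer1/p53-deleted PBs (-1.31 ± 0.36 log2, SE, adjusted p = 0.45). Mir18 read 6.13, 5.52 and 5.25 in Rb/Dicer1/p53-deleted PBs and 6.31, 6.94 and 7.07 in Dicer1/p53-deleted PBs (-1.14 log2, adjusted p = 0.45), and Mir20a differed by -1.0 log2 (adjusted p = 0.48). The groups did not overlap for these 3 genes, as for 14.8% of all genes on the arrays. The upward end was led by Mir421, at 1.16 log2, with overlapping groups.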

How the data were processed

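Snap-frozen tumors and normal cerebellum were extracted in Trizol, and the RNA was measured on 19 arrays of the Affymetrix type Mouse Gene 1.0 ST or on 7 of the type 2.0 ST. The deposited values are log2 levels per transcript cluster that the authors made by robust multi-array averaging in Expression Console, for which no version is given. That step sets arrays processed together on 1 scale, and the 1.0 ST arrays show 3 such sets, which the sources used here do not describe. The 19 arrays of the 1.0 ST type were therefore quantile-normalized, and the 2.0 ST values were used as deposited. All columns were mapped to samples by their names.

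Each gene was represented by its transcript cluster of highest mean, and clusters with several symbols were left out: 61 such clusters on the 1.0 ST arrays hold a microRNA symbol. Members were named through the platform annotation, and positions and mature sequences came from RefSeq (GRCm38.p6). Comparisons used limma 3.58.1 in R 4.3.3 (lmFit and eBayes, two-sided) on the arrays of the groups compared. The p-values were adjusted after Benjamini and Hochberg across every named gene on the array type, and a call meant an adjusted p under 0.01 against cerebellum and under 0.05 between tumors. The 2.0 ST arrays were fitted together. The fits were tested on simulated data with known differences and independent noise. Those data held no array sets, so the test does not bear on the array sets of the 1.0 ST arrays. Arrays of a group are labelled as separate tumors or samples, which is all that is known of their independence, and the number of arrays limits the precision. Alternatives were other scalings, a filter on low values, the array set or the replicate number as a block, an intensity trend, a mean over a gene's clusters, all groups in 1 fit, and each array left out in turn (of Rb/p53-deleted PBs on the 1.0 ST arrays, PB 11 only).

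The members, the family lists, the cell type markers and the tests were chosen with earlier results of these data known. The genes named are those with the largest called differences without overlap in each comparison (up to 8 upward and 8 downward), the leading members of each list, the members of the miR-17, miR-15/16, sensory organ and p53 lists, and their host genes. The Mir30 genes, Mir421, Mir541, Mir199b, Mir219a-1, Mir338 and the protein-coding and long noncoding genes of the Dlk1-Dio3 domain were added after their values were seen. Positions are those of the annotation and were not used to measure anything. Figures were drawn with matplotlib 3.10.9.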

Additional observations from a re-analysis of the deposited data

Results flagged for a closer look

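Among 70 members whose levels in the 5 Rb/p53-mutated PBs were screened for a single array far from the rest, 3 stood out by the gap to the nearest array as a share of the whole range (Dixon's ratio, critical value 0.71). Chance flags about 1 in 20 groups. Mir106b read 7.79 in Rb/p53-mutated PB 5 and 7.26 to 7.38 in the others (ratio 0.766). Mir338 read 8.52 in Rb/p53-mutated PB 5 and 8.18 to 8.26 in the others (ratio 0.761). Mir19a read 4.90 in Rb/p53-mutated PB 1 and 4.31 to 4.47 in the others (ratio 0.721), all below Rb/p53-deleted PBs.

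The difference from cerebellum was not the same in both tumor groups of the 1.0 ST arrays for 140 members by the direct test of one group against the other (limma, adjusted p under 0.05), a share close to the 46.5% of all genes so called. Of these, 35 had their higher level in Rb/p53-mutated PBs and 105 their lower level. The array set runs along the same split and cannot be told apart from it.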

How the results depend on the processing

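Leaving out the lowest 25% of genes by mean level kept 113 members in each comparison of Rb/p53-mutated PBs and 119 in that of Rb/p53-deleted PBs with cerebellum, of which 47 (over cerebellum), 42 (over Rb/p53-deleted PBs) and 43 were called, in place of 136, 140 and 127, and moved the medians to -0.0561, -0.0779 and 0.00487 log2 in the same order. With the values as deposited, 258 members were called in Rb/p53-mutated PBs over cerebellum and 281 over Rb/p53-deleted PBs, with medians of -0.96 and -0.95 log2. Centring each array on its median gave medians of -0.0570 and -0.0868 log2 in the same 2 comparisons. One median and interquartile range for all arrays gave -0.28 log2 in Rb/p53-mutated PBs and -0.20 log2 in Rb/p53-deleted PBs over cerebellum. The array set as a block gave 54 calls and a median of -0.18 log2 in Rb/p53-deleted PBs, with 11 of the 41 rises and 36 of the 86 falls kept.

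Among the differences given with a value above, some signs turned with the values as deposited. In Rb/p53-mutated PBs over cerebellum these were Mir106a (-0.13 log2), Mir17 (-0.52), Mir20a (-0.000386), Mir218-1 (-0.38), Mir25 (-0.81), Mir338 (-0.90), Mir93 (-0.47) and Mir96 (-0.41). Over Rb/p53-deleted PBs they were Mir126a (-0.54), Mir221 (-0.00573), Mir383 (-0.14) and Mirlet7e (-0.094). The median difference over all genes was then -0.92 and -0.86 log2 in these comparisons, and the shift was not the same for every gene. Of all members, 8 over cerebellum and 22 over Rb/p53-deleted PBs were called with both kinds of values but in opposite directions. With the array set as a block, the sign of 2 such differences turned in Rb/p53-deleted PBs, Mir155 (-0.17) and Mir92-2 (0.0263). Over all members, PB 11 kept the sign against cerebellum for 32 of the 41 called rises and 84 of the 86 called falls.

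With 1 array left out at a time, the members called ranged from 94 to 146 in Rb/p53-deleted PBs over cerebellum, from 103 to 135 in Rb/p53-mutated PBs over cerebellum, from 122 to 151 between the tumor groups, from 0 to 1 in Dicer1-deleted PBs over PB 12, and stayed at 0 between the 2 Dicer1-deleted genotypes. The medians ranged from -0.07 to -0.04 log2, from -0.16 to -0.11, from -0.14 to -0.10, from -0.06 to -0.01 and from -0.13 to -0.01 log2 in the same order. Named calls that ended without 1 or more single arrays, in each case with their sign kept, were Mir124a-2, Mir155, Mir204, Mir219a-1, Mir219a-2, Mir25, Mir92-2, Mir96 and Mirlet7e in Rb/p53-deleted PBs (without a cerebellum array); Mir100, Mir183, Mir20a, Mir20b, Mir218-1, Mir30a, Mir34a, Mir34c, Mir451a, Mir701 and Mir93 in Rb/p53-mutated PBs over cerebellum (without a cerebellum array, and for Mir100, Mir20a, Mir20b, Mir218-1, Mir34a and Mir34c also without a tumor); and Mir100, Mir17 and Mir380 between the tumor groups (without Rb/p53-mutated PB 2 or PB 5).

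The replicate numbers of the labels do not pair the samples: deviations of same-numbered arrays correlated between -0.205 and 0.288. The replicate block gave 85 calls in Rb/p53-deleted PBs over cerebellum, 105 in Rb/p53-mutated PBs over cerebellum (median -0.16 log2), 114 between the tumor groups and 0 between the Dicer1-deleted genotypes. For Dicer1-deleted PBs over PB 12, no paired analysis was possible because PB 12 shares its number with no other array of the 2.0 ST type.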
